A study of Rattus norvegicus with 6 samples.

Results

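Cytosolic ribosomal proteins are the protein part of the ribosome, the particle that translates messenger RNA in the cytosol. Each joins ribosomal RNA in either the small subunit, which reads the message, or the large subunit, which forms the peptide bond, and their messages are among the most abundant in a cell. Most of these messages begin with a C followed by a run of pyrimidines, the terminal oligopyrimidine or TOP tract, through which mTOR signalling sets how much of each is translated. The kidney cortex is rich in proximal tubule cells, which reabsorb solutes and filtered protein.

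The set described here is every gene whose symbol, taken from the accession of its probe, begins with Rpl or Rps and a digit, or is Rpsa. The 7 genes of Rps6k kinases and 1 symbol of a pseudogene, Rps7-ps20, were left out. The rule found 80 genes among the 15645 named genes on the array, 49 of the large subunit and 31 of the small. Of these, 78 passed the filter on dim probes, which asks for a signal well above background on every array of either group, and they were tested among 11530 genes in all. Rpl27l2, with 1 probe, was not well above background on any array, and Rpl39l1, with 2 probes, on at most 1. The 78 comprise 47 large subunit and 31 small subunit genes. Of them, 8 are copies or paralogues by their symbols: Rpl3l, Rpl22l1, Rpl30l3, Rpl36al1, Rpl37al2, Rpl37l1, Rps4y2 and Rps12l4.

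Total RNA was taken from kidney cortex. The animals were male rats of the Sprague-Dawley strain, 5 weeks old when bought. One group of 3 rats received water, and the other 3 received ethylenediamine dihydrochloride, a salt of a small diamine, at 500 mg/kg/day, both for 4 weeks. Each animal gave 1 array with 1 colour. All 9 markers of renal cortex passed the filter on dim probes. Their median log2 difference, ethylenediamine minus water, was -0.19, and 3 of them, Calb1 (-0.89), Aqp2 (-0.57) and Lrp2 (-0.19), were lower at an unadjusted limma p under 0.05 (33.3%, where 4.97% of all genes were). Slide 1 held the 3 water arrays and ethylenediamine 1, and slide 2 held ethylenediamine 2 and 3, so slide and treatment can be told apart only through ethylenediamine 1. That array had the fewest probes well above background, 35691 against 38930 to 40843 on the other 5. Markers of leukocytes (10 of 15 measured, summed signal 108 to 115 in water and 90.1 to 103 in ethylenediamine, on a scale where the 75th percentile is 1) and of erythrocytes (5 of 6, 562 to 713 and 596 to 806) had 0 genes at an unadjusted p under 0.05 in limma's test. Of 8 tubular injury markers, 4 were higher at that level, where 5.39% of all genes were, with a median log2 difference of 0.39 and a summed signal of 25.2 to 38.9 in water and 37.7 to 53.1 in ethylenediamine. The part of these markers in the results was not tested.

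The TOP tract lies at the start of the message, so the sequences around the annotated starts of 10 members are shown, some with such a run and some without. Promoters were matched for 61 of the 78 measured genes in RefSeq's table (build GRCr8) and are shown as 20 bases before the annotated start and 20 from it, 5′ to 3′ on the gene's strand. Capitals mark the longest run of at least 5 pyrimidines that begins with C. Rpl19 (chr10:83519044-83519083, plus strand), Rpl10 (chrX:157205830-157205869, plus strand), Rpl10a (chr20:6390513-6390552, plus strand), Rps26 (chr7:1643385-1643424, minus strand) and Rpl22 (chr5:168117941-168117980, plus strand) have C at the annotated start and at least 4 pyrimidines after it:
Rpl19: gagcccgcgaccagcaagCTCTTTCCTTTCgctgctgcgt
Rpl10: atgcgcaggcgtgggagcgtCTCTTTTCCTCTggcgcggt
Rpl10a: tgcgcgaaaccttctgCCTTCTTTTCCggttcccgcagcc
Rps26: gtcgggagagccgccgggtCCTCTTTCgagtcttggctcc
Rpl22: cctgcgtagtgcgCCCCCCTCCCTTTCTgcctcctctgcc
The paralogue Rpl22l1 (chr2:113683176-113683215, plus strand) and the copy Rps12l4 (chr7:25007010-25007049, minus strand) have no such run in this window, and Rpl3l (chr10:14258426-14258465, plus strand) has one further in:
Rpl22l1: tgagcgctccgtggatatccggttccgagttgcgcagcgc
Rps12l4: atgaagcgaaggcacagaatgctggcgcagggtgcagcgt
Rpl3l: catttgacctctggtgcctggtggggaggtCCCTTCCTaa
Rps6 (chr5:106420521-106420560, minus strand) and Rpl11 (chr5:153560783-153560822, minus strand), both textbook ribosomal proteins, differ again: the Rps6 window has a short run before the start, and the Rpl11 window has none:
Rps6: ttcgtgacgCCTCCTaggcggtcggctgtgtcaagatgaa
Rpl11: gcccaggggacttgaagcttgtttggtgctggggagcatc
A C at the annotated start with 4 pyrimidines after it was found in 21 of the 61 members (34.4%) and in 881 of all 33469 promoters of the table (2.63%). A run of at least 8 pyrimidines beginning with C, within 20 bases of the start, was found in 40 of 61 (65.6%) and in 3880 of 33469 (11.6%). Within 50 bases of the start, such a run was found in 51 of 61 (83.6%) and in 9517 of 33469 (28.4%). The annotated starts were not checked against the messages in this tissue. A window without a run thus does not show that the message lacks one. The motif GGGCGG, searched on both strands over the 300 bases, was in 57.4% of members and 33.1% of all promoters, and CCGGAAG in 27.9% and 8.75%. CACGTG, a palindrome, was in 8.2% and 6.42% over the 300 bases, and TATAAA, searched on the gene's strand in the 50 bases before the start, in 4.92% and 2.26%. The pyrimidine runs were searched on the gene's strand, and 1 promoter can hold several of these motifs. A match is a description of the letters, not a site.

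The ribosomal protein genes showed no detectable difference between the groups: of 78, 0 had an adjusted p under 0.05 in limma's test, where 0 of all 11530 genes did (0%). The smallest adjusted p among the members was 0.455 (Rpl3l, limma). At an unadjusted limma p under 0.05, 1 member was higher in ethylenediamine (1.28%) where 5.39% of all genes were, and 1 was lower (1.28%) where 4.97% were. The higher one, Rpl3l, and the lower one, Rps12l4, are copies or paralogues by symbol, and none of the other 70 genes reached that level in this fit. Rps12l4 passed the filter only through the water arrays, and with the filter on all 6 arrays 0 members were lower. The median log2 difference, ethylenediamine minus water, was 0.016 over the members and -0.0036 over all genes tested, with 48 members above 0 and 30 below. The large subunit's median was 0.016 (47 genes) and the small subunit's 0.020 (31 genes). In bulk tissue, fewer cells of a type and less RNA per cell cannot be told apart.

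**Figure D1:**
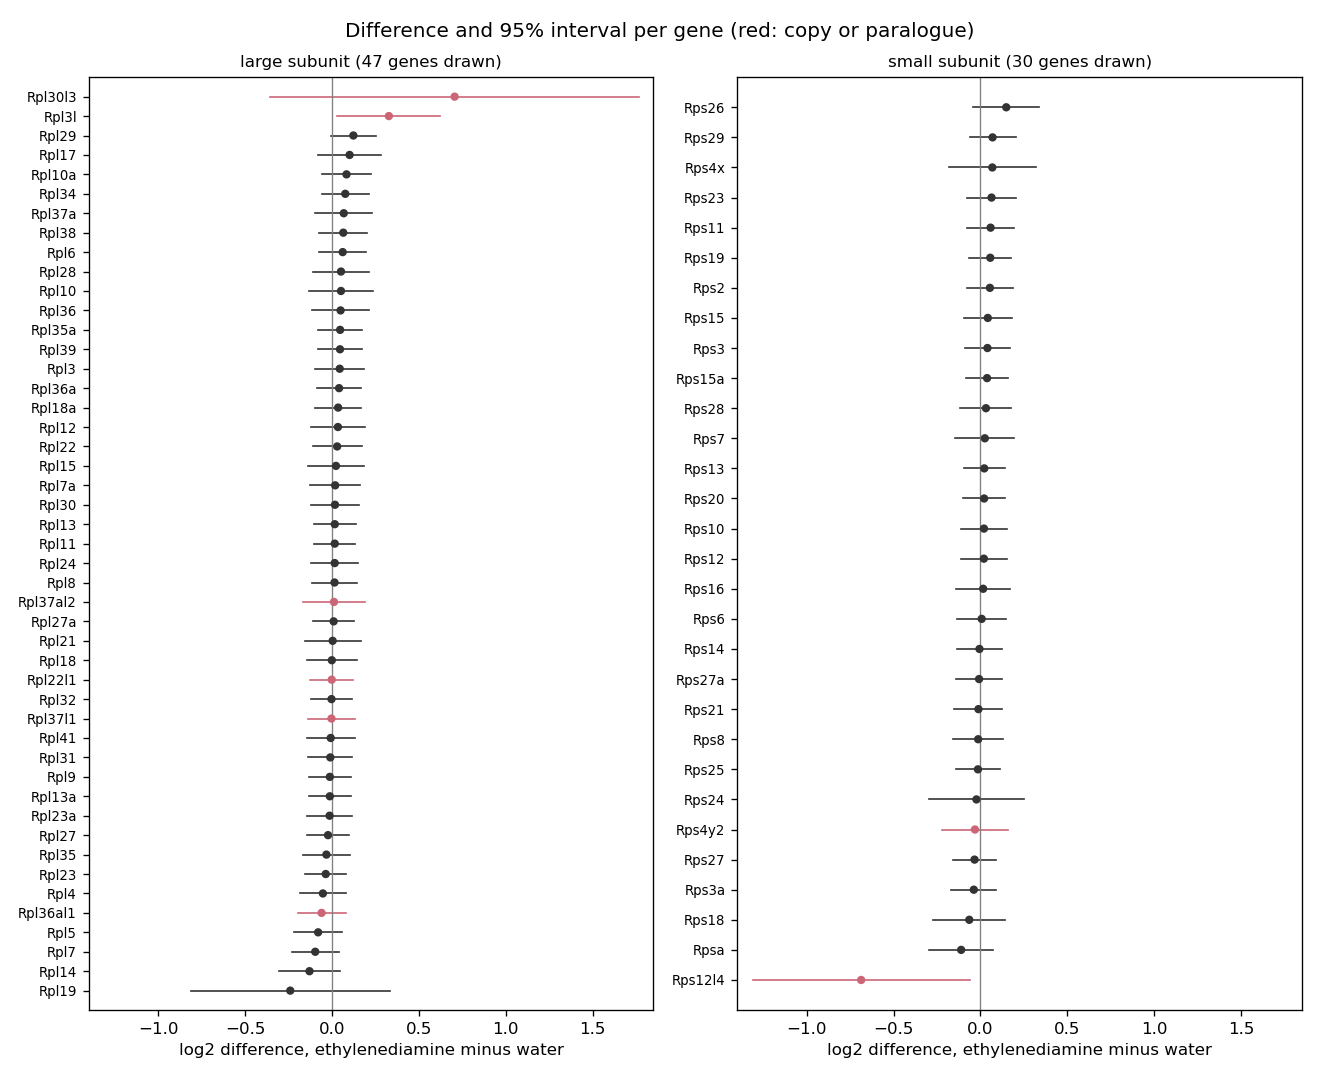
Log2 difference between ethylenediamine and water for the measured ribosomal protein genes, by subunit (1 small subunit gene is not drawn), with the 95% interval from limma (3 arrays per group); red marks the 8 copies or paralogues. The intervals of Rpl3l and Rps12l4 are the 2 that leave out 0, and among the other 70 genes the differences run from -0.24 to 0.15.

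Their values varied little between arrays. The standard error of the difference had a median of 0.055 over the members against 0.090 over all genes and 0.067 over the 1081 other genes of the brightest 10% by signal, in which 72 of the 78 members lie. The 95% interval of the log2 difference lay within 0.2 of 0 for 54 of 78 members (69.2%), for 15.6% of all genes and for 30.4% of those 1081 genes. The range over the 6 arrays was under 0.2 for 64 members (82.1%), for 23.3% of all genes and for 45.7% of those 1081 genes. Its median was 0.128 over the members and 0.33 over all genes. These shares were not tested, and signal, which these genes share, moves with them.

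**Figure D2:**
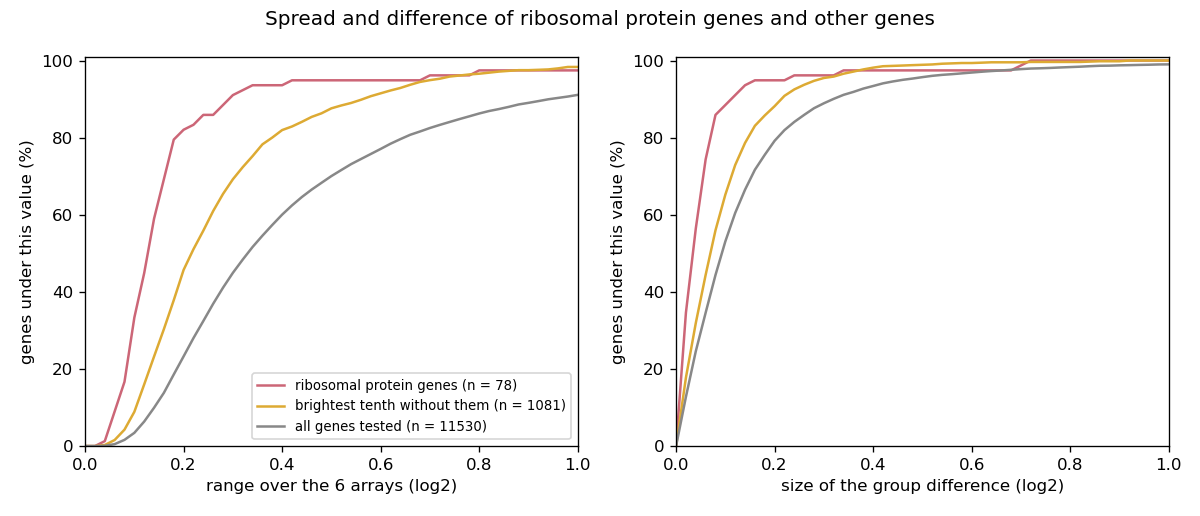
Percent of genes whose range over the 6 arrays (left) or size of group difference (right), both log2, lies under the value on the x axis, for the 78 ribosomal protein genes, the 1081 other genes of the brightest 10% and all 11530 genes tested. The members' curve rises first: 82.1% have a range under 0.2, against 45.7% of the other bright genes and 23.3% of all genes.

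Over the members, the median deviation from each gene's water mean was -0.018, 0.036 and -0.014 on water arrays 1 to 3, and -0.012, 0.024 and 0.036 on ethylenediamine arrays 1 to 3. Water 2 and ethylenediamine 2 and 3, the latter both on slide 2, were high and the other 3 arrays low, and the groups overlap. In all, 21 of the 78 members were highest on water 2, 25 on ethylenediamine 2 and 24 on ethylenediamine 3. Of all 11530 genes, 1952, 1992 and 2293 were highest on these arrays. Of the summed scaled signal of the genes tested, the members took 7.84%, 8.08% and 7.79% in water and 7.84%, 8.02% and 8.10% in ethylenediamine. Slide 2 held only ethylenediamine arrays, so a slide block compares ethylenediamine 1 with the 3 water arrays, as a fit within slide 1 does. These fits give the same difference for each member. The members' median was -0.012, which rests on 1 ethylenediamine array.

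**Figure D3:**
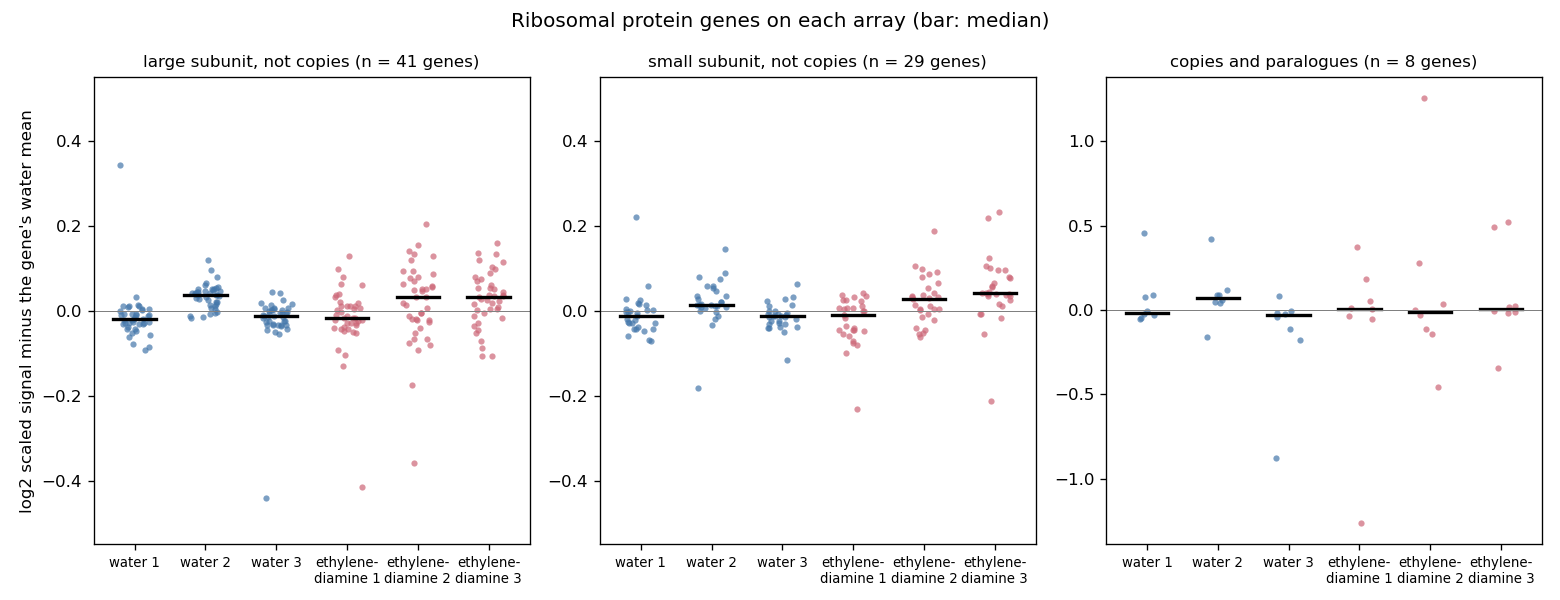
Log2 scaled signal of each measured ribosomal protein gene on each array minus that gene's water mean, for large subunit genes, small subunit genes and copies or paralogues (the right panel has its own y axis); bars are medians. Water 2 and ethylenediamine 2 and 3 lie a little above the other 3 arrays in the left and middle panels.

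Among the large subunit genes, the smallest unadjusted p outside the copies belonged to Rpl29, a small basic protein of the large subunit also described as heparin-binding. Its log2 scaled signal was 6.92, 6.97 and 6.90 in water and 7.01, 7.09 and 7.06 in ethylenediamine, and the groups did not overlap. The log2 difference was 0.12 ± 0.052 (SE, n = 3 per group), 8.92% higher, and was not called (limma adjusted p = 0.494). All 5 of its probes were higher, by 0.046 to 0.12.
Groups did not overlap for 5 members higher in ethylenediamine (6.41%) and 4 lower (5.13%), where 9.2% of all genes were higher and 8.27% lower in this sense. The higher ones were Rpl3l, Rpl29, Rpl10a, Rps19 and Rpl39. Rpl10a, a protein of the stalk by which transfer RNA leaves, read 6.33, 6.36 and 6.33 in water and 6.37, 6.40 and 6.50 in ethylenediamine (difference 0.084 ± 0.057 SE), with all 3 probes higher. Rps19, needed to mature the small subunit and a gene of Diamond-Blackfan anaemia, read 5.96, 5.95 and 5.94 against 5.98, 6.04 and 6.01. Rpl39, which lines the exit tunnel, read 6.31, 6.29 and 6.29 against 6.31, 6.39 and 6.33.
The lower ones were Rps12l4, which passed the filter only through the water arrays, Rpl14, Rpl7 and Rpl5. Rpl14 read 7.20, 7.41 and 7.26 in water and 7.19, 7.12 and 7.18 in ethylenediamine, while its other probe was level at -0.0087. Rpl7 read 6.75, 6.81 and 6.72 against 6.63, 6.71 and 6.66, and all 3 of its probes were lower. Rpl5, which with Rpl11 can bind Mdm2 when ribosome assembly fails, read 5.48, 5.60 and 5.53 against 5.44, 5.46 and 5.47. Its partner Rpl11 differed by 0.016 ± 0.047 (SE) at its brightest probe. The other Rpl11 probe differed by -0.076, so the probes disagree in sign.

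The copies Rpl30l3, Rps12l4 and Rpl3l had the widest differences of the members. Of the 8 copies or paralogues, 5 had a log2 difference under 0.1 in size. Probes for near-identical copies may bind the parent's RNA as well, so these genes are uncertain, and this was not tested. Rpl37l1 is among them by its symbol alone. It read 7.43, 7.54 and 7.48 in water, and the set holds no separate Rpl37. Rpl3l, the striated muscle counterpart of Rpl3, had log2 scaled signals of -4.11, -4.11 and -4.37 in water and -4.01, -3.92 and -3.67 in ethylenediamine. Its difference was 0.33 ± 0.12 (SE, n = 3), and limma's fit gave an adjusted p of 0.455. Rpl3 itself, near the peptidyl transferase centre, differed by 0.045 ± 0.057 (SE). Rps12l4 read -4.03, -4.26 and -4.02 in water and -5.37, -4.56 and -4.45 in ethylenediamine, where 2 of 3 arrays measured it well above background. Its difference was -0.69 ± 0.25 (SE), with an adjusted p of 0.456 in limma's fit. The array that did not measure it was ethylenediamine 1, whose lowest well-above-background signal was -4.45, so its value of -5.37 gives only a bound. Without that array the difference was -0.40. With slide as a block the difference rests on that array alone, and no size is given. Rpl30l3 read 0.89, 0.85 and -0.45 in water and 0.80, 1.68 and 0.92 in ethylenediamine, a difference of 0.71 ± 0.43 (SE). Rpl22l1, the paralogue that can replace Rpl22, differed by -0.0012 ± 0.051 (SE), and Rpl22 by 0.030 ± 0.057 (SE). The other, dimmer Rpl22l1 probes differed by 0.070 to 0.093.

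Among small subunit genes, Rps26, at the exit of the message channel, read 4.13, 4.25 and 4.13 in water and 4.19, 4.36 and 4.40 in ethylenediamine, a difference of 0.15 ± 0.077 (SE). Its second probe moved by -0.088, so the probes disagree in sign. Rpsa, also known as the laminin receptor, read 5.65, 5.80 and 5.68 against 5.61, 5.69 and 5.50, and its 4 probes gave differences of -0.087 to -0.12. Rps18 was low on 1 array: 7.08 on ethylenediamine 1 against 7.30 to 7.35 on the other 5, and its difference was -0.064 ± 0.084 (SE). With slide as a block it was -0.23 (limma adjusted p = 0.545). Rps18 was chosen after its values were seen. Rps24 was high on water 1, 6.15 against 5.75 to 5.97, and its other probe differed by -0.034.
Others of known role had log2 differences under 0.1 in size, and none was called. Rps6, the target of S6 kinases, read 7.57, 7.67 and 7.60 in water and 7.57, 7.65 and 7.65 in ethylenediamine. Its difference was 0.0070 ± 0.057 (SE), with a 95% interval of -0.13 to 0.15. Rps3 (0.040), Rps14 (-0.0057), Rps27 (-0.034), Rps27a, which is made as a fusion with ubiquitin (-0.0080), and X-linked Rps4x (0.068) gave log2 differences smaller than their standard errors. Rpl10 (0.052), Rpl13a (-0.012), Rpl34 (0.077), Rpl36a (0.041) and Rpl38 (0.065) had unadjusted limma p-values of 0.213 or more.

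The other 48 measured members had log2 differences from -0.064 (Rps18) to 0.070 (Rps29), with a median of 0.016, and for 41 of them the 95% interval lay within 0.2 of 0. Their smallest unadjusted limma p-value was 0.244. Rps18 had the widest range over the 6 arrays among them, 0.267. Rps29, a zinc-binding protein of the small subunit, read 7.75, 7.67 and 7.66 in water and 7.74, 7.79 and 7.77 in ethylenediamine, and the groups overlap through water 1. Rpl23a, at the mouth of the exit tunnel, read 4.19, 4.17 and 4.18 against 4.18, 4.11 and 4.20. Rpl4, a large subunit protein with an arm in the exit tunnel, differed by -0.052 ± 0.053 (SE), and Rpl6 by 0.062 ± 0.055 (SE). Rpl41, the smallest ribosomal protein, differed by -0.0070 ± 0.056 (SE). These genes were chosen after their values were seen.

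**Figure D4:**
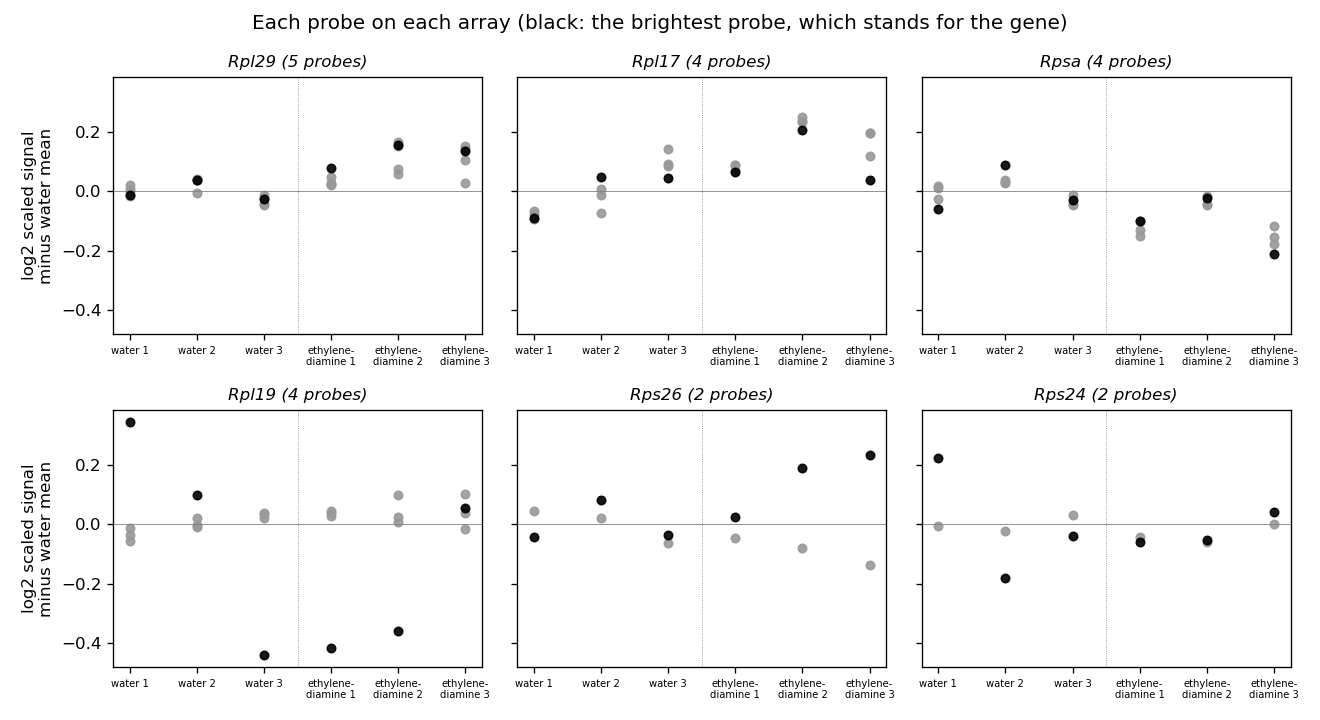
Log2 scaled signal of every kept probe of 6 ribosomal protein genes on each array minus that probe's water mean; black points are the brightest probe, which stands for the gene. The probes of Rpl29 and Rpsa move together, and the black probe of Rpl19 ranges over 0.79 in water while its other 3 probes stay near 0.

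Several probes allow the readings of a gene to be compared. They read the same RNA on the same arrays, so any array or slide shift is shared by them. Their agreement in sign is therefore no test of treatment, and it was not counted over all genes. Of the 236 member probes on the array 231 were kept, and 69 members had more than 1: in 30 all were higher, in 13 all lower and in 26 the signs differed. Probe by probe, 1 member probe was higher and 1 lower at an unadjusted limma p under 0.05 (0.433% each), where 4.85% of all 37822 probes were higher and 5.84% lower. The median spread between probes of a gene was 0.045, and 65 of 69 spreads were under 0.2. Rpl36a had the widest spread among the genes that are not copies, from -0.25 to 0.076. The -0.25 came from a dim probe, which read -4.84 to -4.15 over the arrays. The other Rpl36a probes differed by 0.022 to 0.076. Rpl19, which contacts the small subunit, came next: its brightest probe read 7.70, 7.46 and 6.92 in water and 6.95, 7.00 and 7.41 in ethylenediamine. The difference of that probe, -0.24 ± 0.23 (SE), is not shared by the other 3, which differed by 0.011 to 0.077. Rpl17 had 4 probes, all higher, by 0.10 to 0.18.

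Ribosomal proteins with other names gave a like picture. All 6 were measured, with a median difference of 0.025 and 0 genes at an unadjusted limma p under 0.05. The stalk proteins Rplp0, Rplp1 and Rplp2 differed by 0.025, -0.029 and 0.085, Fau, made as a fusion with a ubiquitin-like protein, by 0.024, and Rack1 by 0.00020. Mitochondrial ribosomal protein genes, 67 measured, had a median of 0.030, with 2 higher (2.99%) and 1 lower (1.49%) at an unadjusted limma p under 0.05, both shares below those of all genes. The lower one, Mrpl18, had the smallest adjusted p of all genes (0.0973, limma) and read 3.68, 3.73 and 3.69 in water and 3.00, 2.98 and 2.95 in ethylenediamine.

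**Figure D5:**
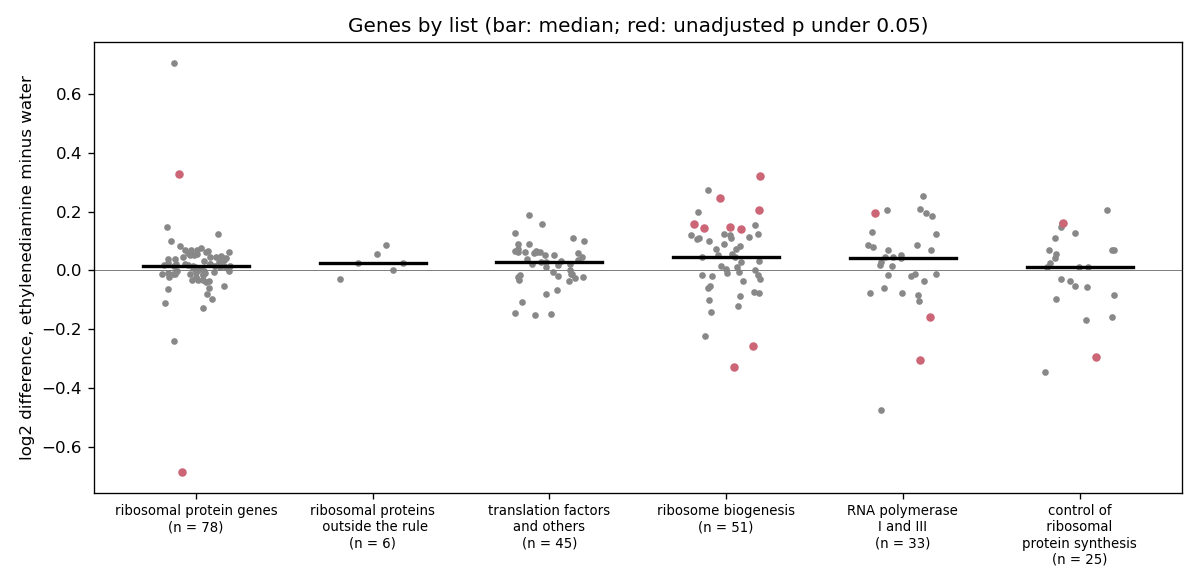
Log2 difference between ethylenediamine and water for each gene in the ribosomal protein set and in 5 related lists; bars are medians and red marks genes at an unadjusted limma p under 0.05. The biogenesis list holds 9 red points, and the ribosomal protein genes hold 2.

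Ribosome biogenesis factors, which process ribosomal RNA and assemble the subunits, were measured for 51 of 59 fixed genes and had a median of 0.046. At an unadjusted limma p under 0.05, 7 were higher (13.7%) and 2 lower (3.92%), where 5.39% and 4.97% of all genes were, and 0 had an adjusted p under 0.05. Nop2, a methyltransferase of large subunit RNA, read 2.16, 2.14 and 2.14 in water and 2.40, 2.35 and 2.42 in ethylenediamine, a difference of 0.24 ± 0.049 (SE; limma adjusted p = 0.329). Bysl, a small subunit assembly factor, read -0.29, -0.18 and -0.26 against -0.012, 0.066 and 0.18 (difference 0.32). Bms1, a small subunit GTPase, differed the other way by -0.33. RNA polymerase I and III genes, 33 of 38 measured, had a median of 0.042, with 1 higher and 2 lower: Polr3d (0.20), Gtf3c4 (-0.30) and Taf1b (-0.16). Translation factors, listed with a few other genes such as Hnrnpa1, an RNA-binding protein of splicing, and Tpt1, were measured for 45 of 49 and had a median of 0.028 and 0 in either direction. In this list Hnrnpa1 (0.13), Eif4a2 (-0.15) and Eif1 (-0.15) had the smallest p-values. Genes that control ribosomal protein synthesis, 25 of 32, had a median of 0.011, with Tsc2 (0.16) higher, Mdm4 (-0.30) lower and Max at -0.35, which missed that threshold. Proteasome subunits, 37 of 38, had a median of 0.068, with 3 higher and 0 lower at that level. These lists were described by their counts alone.

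By the letters at their starts, the members differed little. The 40 with a run of 8 or more pyrimidines near the start had a median difference of 0.021, and the 21 without one 0.016. The 21 with C and 4 pyrimidines at the annotated start had a median of 0.030 and the other 40 one of 0.016.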

How the data were processed

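Per the file headers, the authors' scanner files give a linear intensity for each spot that Agilent Feature Extraction 10.7.1.1 had corrected for background. The submitters' processing notes name version 10.7. The authors deposited a second table of scaled intensity, used here as an alternative. Members and lists were chosen with earlier results of these data known. Of 62976 spots, 1439 were controls, and 22 of the remaining probes had an outlier flag. Log2 intensity minus each array's 75th percentile was computed, and 37822 probes well above background on all 3 arrays of a group were kept. A gene's brightest kept probe stood for it. Limma 3.58.1 (R 4.3.3) fitted 2 group means to 11530 genes, with Benjamini-Hochberg adjustment. On simulated data with that number of genes, the fit found 81 of 100 genes set to a 2-fold change, 95 of 100 set to 4-fold, and called 7 unchanged genes. The number of arrays, 3 per group, limits the precision. Named members were the 12 with the smallest p, the 3 highest and 3 lowest differences, the 3 widest in water and a fixed set of 26 symbols, of which 20 were measured. Rps18 and the printed promoters were chosen after values were seen. The files hold no mean signal, so normexp used median signals. Alternatives were other background, scaling, filter, probe, variance and block settings, and each array left out. Results for 2 genes are not reported here by name, and they stay in the counts.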

Additional observations from a re-analysis of the deposited data

How the results depend on the processing

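No member was called (adjusted p under 0.05, limma) in any of the 21 alternatives. At an unadjusted p under 0.05 the count of higher members was 0 with normexp, with quantile scaling, with slide as a block, within slide 1 and with the replicate block, and 2 with array weights; the count of lower members was 0 with the filter on all 6 arrays and 2 with slide as a block and within slide 1. Leaving out each array gave 0 to 2 higher (0 without water 3, ethylenediamine 2 or ethylenediamine 3, and 2, Rpl3l and Rps26, without ethylenediamine 1) and 0 to 1 lower (0 without water 1 or water 2). The genes also changed: Rpl29 passed with an intensity trend and with array weights, Rps18 with slide as a block and within slide 1, and Rpl19 without water 3. The members' median was -0.012 with median scaling, where the median of all genes was -0.032. It was -0.012 with slide as a block and within slide 1, which give the same differences from 1 ethylenediamine array. Same-numbered arrays did not deviate together (correlations -0.003, 0.0224 and -0.008), so the replicate block, with a median of 0.016, rests on a number alone. Of 599 values of 30 named genes, 561 moved by less than 1 SD and 38 by more; 12 genes changed sign in some alternative, and the lowest adjusted p was 0.113 (Rps12l4 with slide as a block, which rests on 1 array not well above background). The cause of these shifts was not tested. Signal over background limits Rpl3l and Rps12l4, which lie near the lowest well-above-background signal.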
